A study of Mus musculus with 6 samples.

Results

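Aminoacyl-tRNA synthetases join each amino acid to its transfer RNA, and their transcripts were compared between control and knockout testes of the mouse. The set was defined by gene name, and not by measured values, as 36 synthetase genes, and 34 of them had a row of their own on the array, out of 19938 genes with such a row. These were 18 synthetases of the cytosol and 16 of the mitochondrion. Where a gene had several rows, the row with the highest mean over all arrays stood for it. The row of Aars carries the symbol of a second gene and was left out by the same rule, and Dars was not analysed here. Testes were taken at postnatal day 15 from control pups (3 samples) and from knockout pups (3 samples), and total RNA of each sample was hybridised to 1 Affymetrix mouse gene array. The labels give the genotype of each sample as control or knockout, and no strain, Cre driver, allele design or treatment. Nothing in them ties the replicates to different animals, and the p-values therefore cover only the variation among these 6 samples, part or all of which may be technical. Values are log2 RMA values of transcript clusters, groups of array probes that are summarised into a single value for a stretch of transcript.

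Each synthetase recognises 1 amino acid and the transfer RNAs that belong to it, activates the amino acid with ATP and transfers it to the end of the transfer RNA, so the pool of charged transfer RNAs that ribosomes draw on depends on these enzymes. The cytosol and the mitochondrion mostly use separate enzymes, all encoded in the nucleus, with the suffix 2 marking the mitochondrial ones. Several cytosolic enzymes sit in a large multi-synthetase complex. When amino acids run short, the transcription factor ATF4 raises the transcripts of many cytosolic synthetases together with genes of amino acid synthesis and uptake.

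No synthetase passed the threshold for a difference between the genotypes, and the measured differences were small. The 34 differences (knockout minus control) ran from -0.13 for Rars2, the mitochondrial arginyl-tRNA synthetase, to 0.22 for Cars, the cytosolic cysteinyl-tRNA synthetase, with a median of -0.017 against 0.0033 for all tested clusters. In limma, with Benjamini-Hochberg adjustment over 21789 clusters, 0 of 34 members had an adjusted p under 0.05, where 0.0138% of all clusters did, and the smallest adjusted p of a member was 0.294. At an unadjusted p under 0.05 there were 4 members, 3 higher (Cars, Iars and Wars2) and 1 lower (Rars2). That is 11.8% of the members, beside 10.6% of all clusters (4.10% higher and 6.45% lower), so the share was near the background. Control and knockout arrays were fully separated in 5 members, 2 higher and 3 lower, which is 14.7% of the members beside 15.3% of all clusters (6.73% higher and 8.60% lower). Leaving out control replicate 2 brought the count of 4 to 2, and leaving out knockout replicate 1 brought it to 1; it lay between 3 and 5 without any other single array.

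The arrays limited how small a difference could be seen, and the intervals state that limit. Standard errors of the members ran from 0.038 to 0.080, with a median of 0.048, against 0.056 over all clusters. The 95% interval of the difference lay wholly within 1.2-fold in either direction for 30 of the 34 members (88.2%), beside 76.3% of all clusters. With dim clusters left out (mean under the median of all tested clusters), it was 28 of 31 members (90.3%), beside 9394 of 10901 clusters. Median standard errors were then 0.043 and 0.045. Without that filter, the interval of all 34 ended above a 1.2-fold fall: the lowest bound was -0.25 (0.843-fold), in Hars. The 4 whose interval reached past a 1.2-fold rise were Cars, Iars, Lars and Wars2, and the highest bound was 0.39 (1.31-fold), in Wars2. The limit on falls did not hold under every alternative. With the replicate number as a block, 1 interval reached past a 1.2-fold fall. With an array left out, 0 to 4 did, the most without knockout replicate 2 (lowest bound -0.30). These intervals are not adjusted for the number of members.

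**Figure D1:**
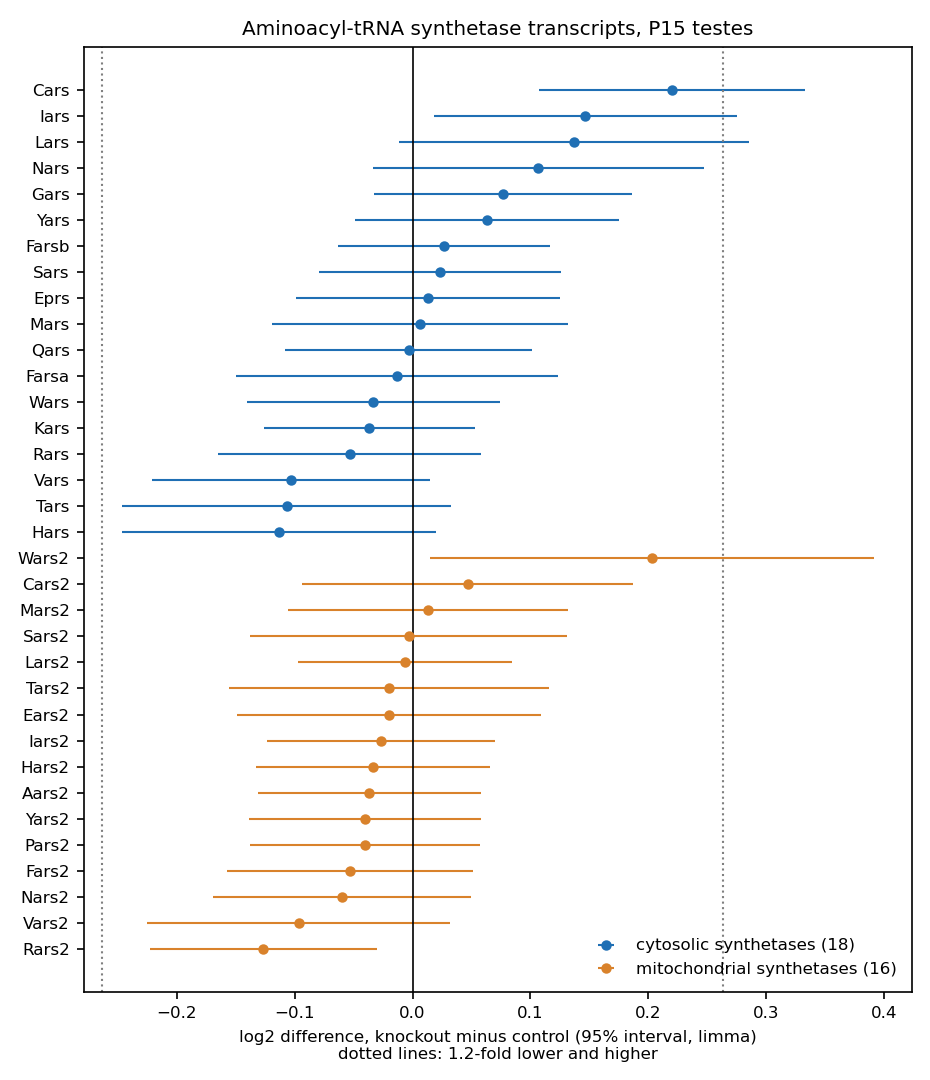
Log2 difference (knockout minus control, horizontal axis) of each measured synthetase, with its 95% interval from limma, for 18 cytosolic and 16 mitochondrial genes. Dotted lines mark 1.2-fold either way; Cars (0.22) and Wars2 (0.20) lie farthest to the right and Rars2 (-0.13) farthest to the left, and 30 of 34 intervals lie within the lines.

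**Figure D2:**
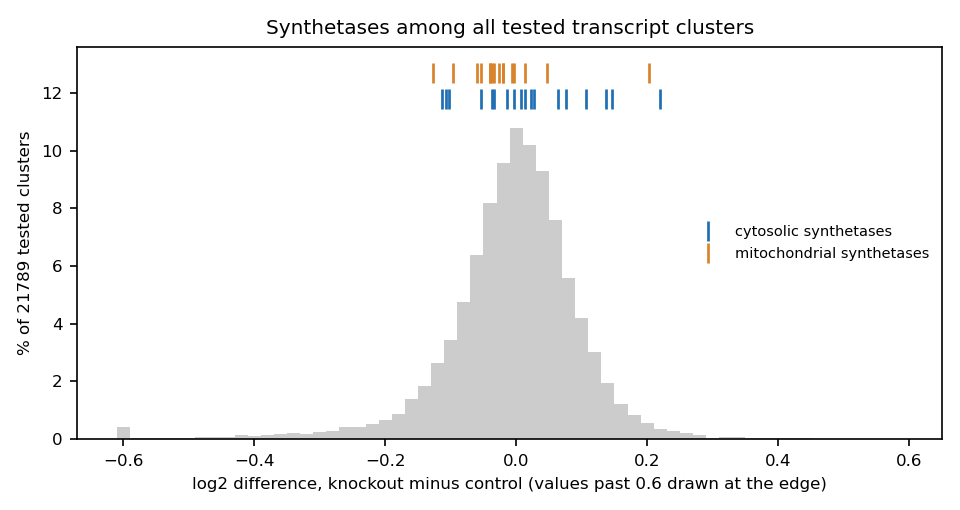
Share of all 21789 tested clusters (percent, vertical axis) by log2 difference, with the synthetases drawn as ticks above. The ticks run from -0.13 to 0.22. Of all clusters, 4.64% had a difference at least as large in size as Cars (0.22), 5.5% as Wars2 (0.20) and 15.7% as Rars2 (-0.13).

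Among the cytosolic enzymes 10 differences were above 0 and 8 below, with a median of 0.010. The median took the other sign without control replicate 2 (-0.0017) and without knockout replicate 2 (-0.00083). Cars had the smallest p of all members. Its cluster, 10569458 on chromosome 7, read, in the order of the replicate numbers, 9.45, 9.36 and 9.48 in the control arrays and 9.68, 9.66 and 9.61 in the knockout arrays. All 3 knockout arrays lay above all 3 control arrays. The means were 9.43 ± 0.062 (SD, n = 3) in control and 9.65 ± 0.036 in knockout, a difference of 0.22 (SE 0.048, 1.16-fold, adjusted p = 0.294 in limma). The exact permutation p, two-sided, was 0.1, the smallest that 3 arrays against 3 can give. The difference stayed between 0.19 and 0.25 under the 12 alternatives tried, each with an unadjusted p under 0.05 and the lowest adjusted p at 0.126.

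Iars, the isoleucyl-tRNA synthetase, read 11.24, 11.17 and 11.15 in the control arrays and 11.39, 11.37 and 11.24 in the knockout arrays (cluster 10405094, chromosome 13). Knockout replicates 1 and 2 were above every control array, while knockout replicate 3 equalled control replicate 1. The difference was 0.15 (SE 0.055, 1.11-fold, adjusted p = 0.419 in limma), and its unadjusted p was under 0.05 in 7 of the 12 alternatives. A second cluster assigned to Iars, 10345025, differed by 0.060 (SE 0.052), with overlapping groups. Lars, the leucyl-tRNA synthetase, read 10.61, 10.38 and 10.51 in control and 10.60, 10.65 and 10.66 in knockout. Control replicate 2 was the low array here, and control replicate 1 lay among the knockout values. The difference of Lars was 0.14 (SE 0.063, adjusted p = 0.501 in limma).

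Vars, the valyl-tRNA synthetase, read 10.53, 10.45 and 10.44 in control and 10.39, 10.42 and 10.30 in knockout. The knockout arrays were all below the control arrays, by as little as 0.02 between the nearest pair. The difference of Vars was -0.10 (SE 0.050, adjusted p = 0.521 in limma). Kars, the lysyl-tRNA synthetase, which also serves the mitochondrion, read 10.32, 10.30 and 10.28 in control and 10.25, 10.27 and 10.27 in knockout. Its groups did not overlap either, with a difference of -0.037 (SE 0.038), less than 1 standard error. They were no longer apart with arrays centred on their medians. Gars, the glycyl-tRNA synthetase and the other enzyme that serves both compartments, had a difference of 0.077 (SE 0.047), and knockout replicate 3 lay below control replicate 1.

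The differences of the other cytosolic members were between -0.11 and 0.11. Hars (-0.11) and Tars (-0.11), the histidyl- and threonyl-tRNA synthetases, were the lowest, and Nars (0.11), the asparaginyl-tRNA synthetase, was the highest. Yars, the tyrosyl-tRNA synthetase, had 0.063. Rars (-0.053), Wars (-0.033), Farsb (0.027), Sars (0.023), Eprs (0.013), Farsa (-0.013), Mars (0.0067) and Qars (-0.0033) lay closer to 0. Farsa and Farsb encode the alpha and beta subunits of cytosolic phenylalanyl-tRNA synthetase, and Eprs the fused enzyme for glutamate and proline. Mars is listed as Mars1 in the platform annotation.

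**Figure D3:**
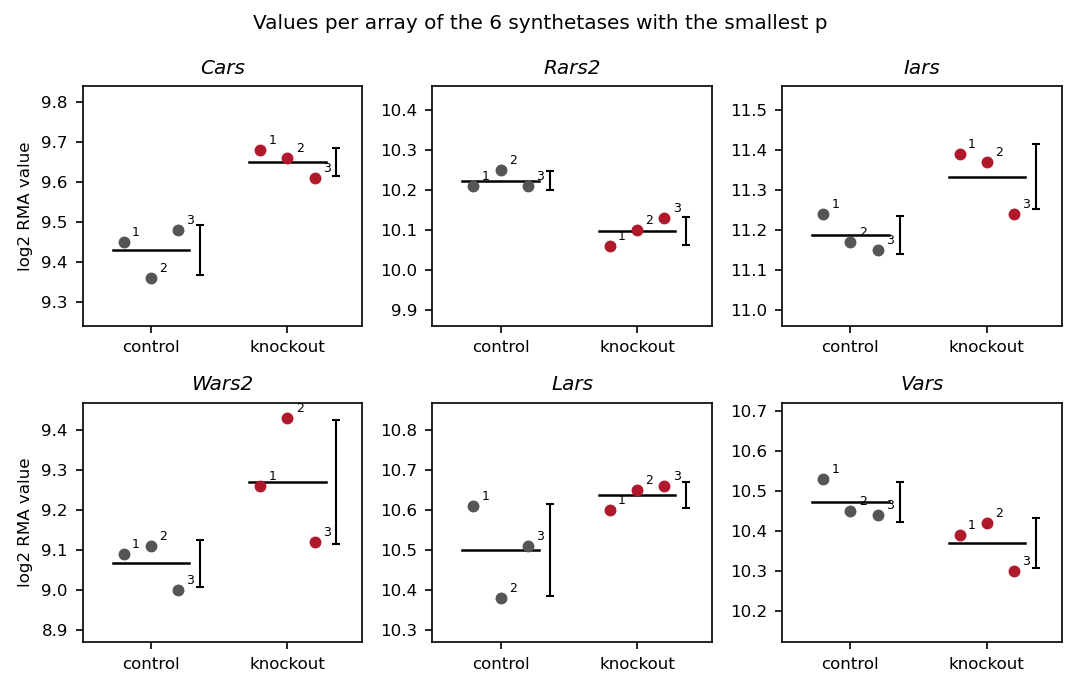
Log2 RMA value (vertical axis) in each of 3 control (grey) and 3 knockout (red) arrays for the 6 synthetases with the smallest p, numbered by replicate; horizontal lines are means and bars are SDs. The groups are apart in Cars, Rars2, Wars2 and Vars and meet or overlap in Iars and Lars.

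Among the mitochondrial enzymes 13 of 16 differences were below 0 and 3 above, with a median of -0.030, and most were smaller than their standard error (11 of 16). The median was -0.015 without control replicate 1 (5 above, 11 below) and -0.016 without knockout replicate 3 (4 above, 12 below), and 5 were above 0 without control replicate 2. Over all clusters 47.0% of differences were below 0 and 51.3% above. Rars2 read 10.21, 10.25 and 10.21 in control and 10.06, 10.10 and 10.13 in knockout (cluster 10503926, chromosome 4). All 3 knockout arrays were below all 3 control arrays. The difference was -0.13 (SE 0.041, fold 0.916, adjusted p = 0.380 in limma). It stayed between -0.14 and -0.11 under the 12 alternatives, 11 of them with an unadjusted p under 0.05.

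Wars2, the mitochondrial tryptophanyl-tRNA synthetase, went the other way, with 9.09, 9.11 and 9.00 in control and 9.26, 9.43 and 9.12 in knockout (cluster 10494664, chromosome 3). The groups were apart, but the knockout arrays spread over 0.31. Its nearest values, in control replicate 2 and knockout replicate 3, were 9.11 and 9.12. The difference was 0.20 (SE 0.080, 1.15-fold, adjusted p = 0.438 in limma), and it was 0.28 without knockout replicate 3 and 0.12 without knockout replicate 2. Its unadjusted p was under 0.05 in 6 of the 12 alternatives. Vars2, the mitochondrial valyl-tRNA synthetase, read 9.55, 9.51 and 9.42 in control and 9.44, 9.43 and 9.32 in knockout. Its difference was -0.097 (SE 0.055), and control replicate 3 lay among the knockout values.

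The other 13 mitochondrial members had differences between -0.060 (Nars2) and 0.047 (Cars2), with adjusted p-values of 0.701 to 0.987 in limma. The lowest after Nars2 were Fars2 (-0.053), the single-chain phenylalanyl-tRNA synthetase of the mitochondrion, Pars2 and Yars2 (each -0.040) and Aars2 (-0.037). Hars2 (-0.033), Iars2 (-0.027), Ears2 and Tars2 (each -0.020), Lars2 (-0.0067) and Sars2 (-0.0033) were closer to 0, and Mars2 was at 0.013.

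Bases upstream of Rars2, Wars2 and Vars2 are shown because these are the 3 members, out of 25 with a promoter sequence, that carry the letters GCGCATGC, a core of the binding element of NRF1, a factor known for driving nuclear genes of mitochondria. The letters were searched on both strands from 250 bases before to 50 after the annotated start, and 3.05% of 27025 genes hold them. Sequences are RefSeq's for GRCm38.p6, written 5′ to 3′ on the strand of the gene; each ends at the base before the start, and capitals mark the letters on either strand.
Rars2, chr4:34614837-34614956, plus strand: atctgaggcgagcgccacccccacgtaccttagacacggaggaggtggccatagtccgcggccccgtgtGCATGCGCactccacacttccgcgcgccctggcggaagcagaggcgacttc
Wars2, chr3:99140970-99141089, plus strand: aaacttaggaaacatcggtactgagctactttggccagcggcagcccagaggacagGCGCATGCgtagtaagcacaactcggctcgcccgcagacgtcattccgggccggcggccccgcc
Vars2, chr17:35667593-35667712, minus strand: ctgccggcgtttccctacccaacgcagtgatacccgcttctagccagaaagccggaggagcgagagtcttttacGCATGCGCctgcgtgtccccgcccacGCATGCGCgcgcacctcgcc
The match begins 51 bases before the start in Rars2 and 64 in Wars2, and Vars2 has a match at 46 and another at 20 bases. The 3 genes with these letters had differences of -0.13, 0.20 and -0.097, so sharing them did not go with 1 direction. The longer NRF1 palindrome, with 1 open base, was in 5 members (Farsb, Iars2, Kars, Mars2 and Tars; 5.19% of all genes), and the ETS letters CCGGAAGT were in 3 (Farsa, Mars and Rars2; 4.31% of all genes). Of the more common strings, CCGGAAG, which lies within CCGGAAGT, was in 9 members, CCAAT in 12, TATAAA in 3 and CACGTG in 4, beside 9.93%, 41.1%, 15.7% and 8.09% of all genes. A match is only a description of the letters in this window.

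The cytosolic and mitochondrial enzymes of the same amino acid were set side by side, in 16 pairs that use Eprs and Fars2 more than once. The signs were the same in 7 pairs and opposite in 9. Eprs, Farsa, Mars, Sars, Ears2, Lars2, Mars2, Sars2 and Tars2 changed sign in 1 or more of the alternatives. The counts therefore rest in part on members without a stable sign. The largest contrast was Wars at -0.033 against Wars2 at 0.20. Cars at 0.22 stood against Cars2 at 0.047. Iars (0.15) and Iars2 (-0.027), Lars (0.14) and Lars2 (-0.0067), and Nars (0.11) and Nars2 (-0.060) differed in sign, whereas Vars (-0.10) and Vars2 (-0.097), and Rars (-0.053) and Rars2 (-0.13), were low together. The difference between the members of a pair was not tested.

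**Figure D4:**
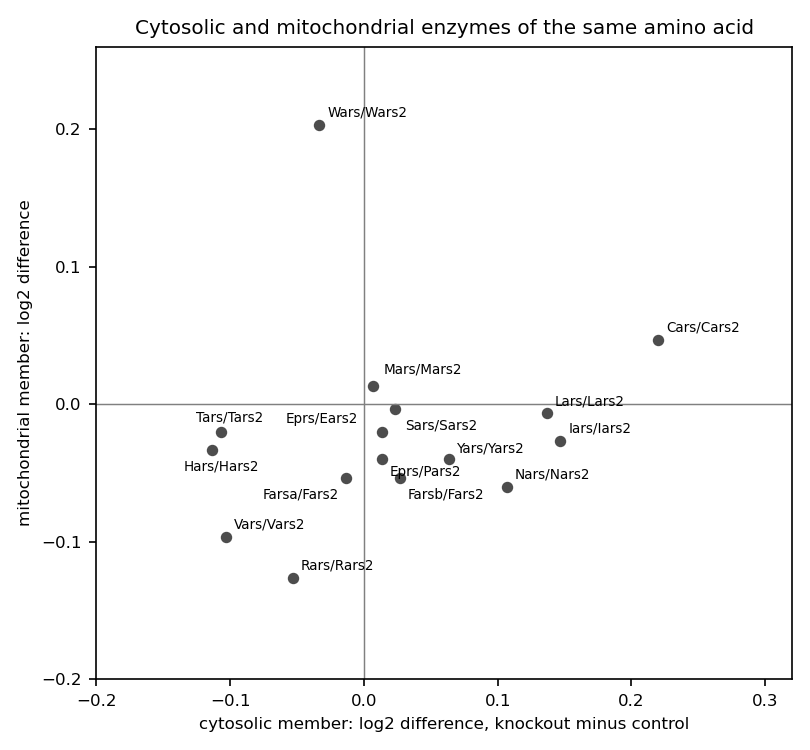
Log2 difference (knockout minus control) of the cytosolic member (horizontal axis) and of the mitochondrial member (vertical axis) for 16 pairs of synthetases of the same amino acid. Cars lies to the right and Wars2 at the top, and the other pairs lie closer to the origin than these. Of the 16 pairs, 9 are in quadrants of opposite sign.

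Synthetases fall into 2 structural classes, which differ in the fold of the catalytic domain. Of class I 18 enzymes were measured and of class II 15 (Eprs, with a domain of each, was counted in neither). The median difference was -0.0050 in class I, with 8 above and 10 below 0, and -0.033 in class II, with 4 above and 11 below. The class I median was above 0 when control replicate 1 (0.019) or 2 (0.0033) was left out, or knockout replicate 3 (0.0017), and the class II median was -0.015 without control replicate 1 and -0.018 without knockout replicate 3. Whether the classes differ was not tested.

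Of the enzymes of the multi-synthetase complex, 7 of 8 were measured, 4 above and 3 below 0, with a median of 0.0067. The median was below 0 without control replicate 2 or 3 or knockout replicate 1 or 2 (-0.025 to -0.0017), and 0.023 without control replicate 1. At an unadjusted p under 0.05 there was 1 (Iars; 14.3%, beside 10.6% of all clusters), and there were between 0 and 2 when an array was left out: 2 without control replicate 1, 1 without knockout replicate 3 and 0 without any other. The complex also holds 3 scaffold proteins that charge no transfer RNA. Of these, Aimp1 differed by 0.060 and Aimp2 by 0.0033. Eef1e1 read 10.92, 11.02 and 10.87 in control and 10.79, 10.80 and 10.83 in knockout, a difference of -0.13 (SE 0.050, adjusted p = 0.428 in limma), with the groups apart.

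Other genes of transfer RNA charging came from a list of 18, of which 17 were measured, 5 above and 12 below 0. The median was -0.030, and it was between -0.057 and -0.0067 with an array left out. Groups were apart in 5 (29.4%, beside 15.3% of all clusters), 1 higher and 4 lower. None of the 17 passed the adjusted threshold in limma, and 4 had an unadjusted p under 0.05 (23.5%, beside 10.6% of all clusters), 1 higher and 3 lower. Besides Eef1e1 these were Sephs2, which makes the selenium donor for selenocysteine (-0.26, SE 0.089), Aarsd1, an editing protein that clears mischarged alanine transfer RNAs (-0.11, SE 0.044), and Tarsl2, a second threonyl-tRNA synthetase of the cytosol (0.18, SE 0.075). Sephs2 read 9.31, 9.68 and 9.45 in control and 9.25, 9.21 and 9.19 in knockout. Its groups were apart, but the 3 control arrays spread more widely than the difference between the group means. Tarsl2 read 9.01, 8.80 and 9.03 in control and 9.05, 9.11 and 9.21 in knockout. This count was 1 without control replicate 2, 2 without knockout replicate 1 or 2, 0 without knockout replicate 3, and 2 with the replicate number as a block or with all rows of the table tested. Gatb, Gatc and Qrsl1, the subunits of the amidotransferase that makes mitochondrial glutaminyl-tRNA, differed by -0.0067, 0.0033 and -0.043.

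Cytosolic synthetases that ATF4 is known to raise were looked at apart from the others. Of 12 listed, 11 were measured, and 9 differences (81.8%, beside 51.3% of all clusters) were above and 2 (Tars and Wars) below 0, with a median of 0.063. Without control replicate 2 there were 7 above and 4 below, and the median was 0.038 without control replicate 3 or knockout replicate 2. Of the 7 other cytosolic synthetases, 1 (Farsb) was above and 6 below 0, with a median of -0.037, which was -0.017 without control replicate 1 and -0.070 without control replicate 2. Without control replicate 1 or 3 or knockout replicate 3, 2 were above 0. At an unadjusted p under 0.05 there were 2 (Cars and Iars; 18.2%, beside 10.6% of all clusters) in the first list and 0 in the second, and 0 passed the adjusted threshold in limma in either. The count of 2 was 4 without control replicate 1, and 1 without control replicate 2, knockout replicate 1 or knockout replicate 2. The count of 0 was 1 without knockout replicate 2. Averaged over the ATF4-responsive synthetases, the deviation from the control mean was 0.043, -0.034 and -0.0094 in the control arrays and 0.062, 0.091 and 0.025 in the knockout arrays (replicates 1, 2 and 3 of each), so control replicate 1 lay above knockout replicate 3 and the groups overlapped. That of the other cytosolic synthetases was 0.039, -0.037 and -0.0014 in control and -0.034, -0.024 and -0.069 in knockout, also with overlap. No test was made over either list.

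The element that ATF4 binds with its partners contains the letters TGATGCAA, which are shown here because their holders did not all share a sign. They were found, on either strand of the same window, in 3 of the 25 members with a promoter sequence (Iars, Tars and Yars), beside 1.03% of all genes. With 1 open base, TGATGNAA, which includes the first string, Gars was added, and 4.51% of all genes matched. Each window is on the strand of the gene, with the match in capitals.
Iars, chr13:49682126-49682155, plus strand: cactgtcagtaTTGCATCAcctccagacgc
Yars, chr4:129189895-129189924, plus strand: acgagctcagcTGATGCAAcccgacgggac
Gars, chr6:55037960-55037989, plus strand: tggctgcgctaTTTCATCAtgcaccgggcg
Tars, chr15:11399655-11399684, minus strand: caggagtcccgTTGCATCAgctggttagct
The match begins 15 bases before the start in Tars and 30 in Gars, and lies just after it in Iars and Yars. Iars (0.15), Gars (0.077) and Yars (0.063) had differences above 0 and Tars (-0.11) below. Of the ATF4-responsive synthetases, Cars (0.22), Lars (0.14), Nars (0.11) and Wars (-0.033) had no promoter sequence here and were not searched.

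Differences of ATF4 targets that are not synthetases ran from -0.14 (Slc7a11) to 0.38 (Chac1). The 95% interval lay wholly within 1.2-fold either way for 18 of 24 (75%, beside 76.3% of all clusters). The interval of Chac1 (0.27 to 0.49) lay wholly above a 1.2-fold rise, but narrowly, with its lower bound at 0.266 against 0.263 for that rise. It is not adjusted for the number of genes, and Chac1 had the highest difference of the list. Its cluster was among the dim ones left out in 1 of the alternatives. Of 24 measured, 17 were above (70.8%, beside 51.3% of all clusters) and 6 below 0, with a median of 0.058, and 0 passed the adjusted threshold in limma. Without control replicate 2 there were 15 above and 9 below, with a median of 0.023. Without control replicate 1 or 3 or knockout replicate 3 there were 20 above and 4 below. Averaged over the list, the deviation from the control mean was 0.041 in control replicate 1 and 0.023 in knockout replicate 3, so the groups overlapped. At an unadjusted p under 0.05, 2 (8.33%, beside 10.6% of all clusters) were higher. These were Chac1, a glutathione-degrading enzyme (7.77, 7.75 and 7.77 in control and 8.19, 8.18 and 8.06 in knockout), and Stc2, a secreted glycoprotein (8.70, 8.83 and 8.76 in control and 9.00, 8.93 and 8.83 in knockout). The knockout values of Chac1 were all above the control values (0.38, SE 0.048, adjusted p = 0.188 in limma), whereas those of Stc2 met the control values at 8.83 (0.16, SE 0.059). The count of 2 was 1 without control replicate 3 or without knockout replicate 1 or 2, 1 with dim clusters left out, and 5 (4 higher, 1 lower) without knockout replicate 3. Asns, which makes asparagine (0.077), Trib3, a pseudokinase of the stress response (-0.0067), and Ddit3, a transcription factor of the same response (0.060), were chosen after their values were seen.

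**Figure D5:**
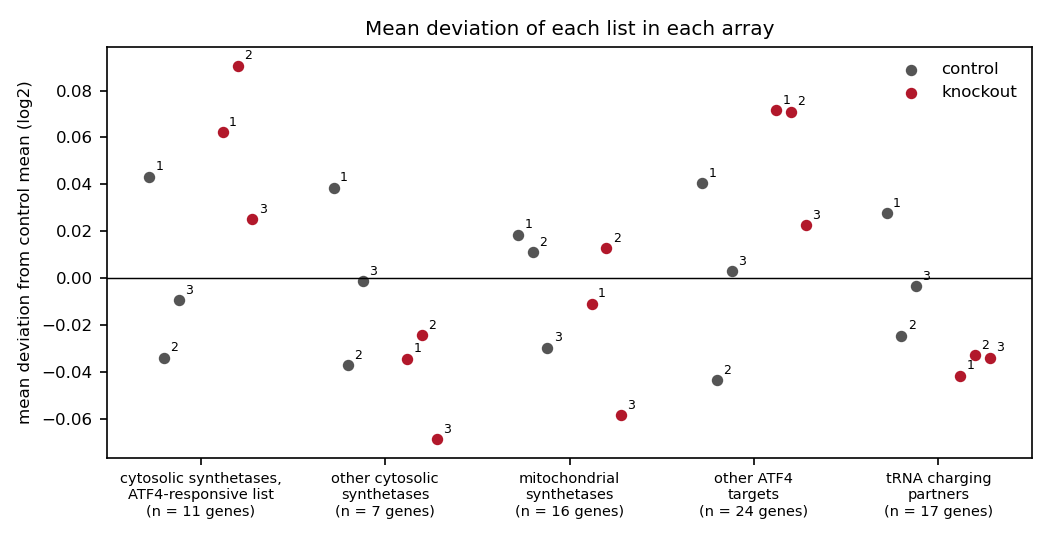
Mean deviation from the control mean (log2, vertical axis) of each gene list in each of 3 control (grey) and 3 knockout (red) arrays, numbered by replicate. The ATF4-responsive synthetases reach 0.091 in knockout replicate 2 but overlap between the groups at control replicate 1 (0.043) and knockout replicate 3 (0.025), and the mitochondrial synthetases range from -0.058 to 0.019; the charging partners lie between -0.042 and -0.033 in knockout and between -0.025 and 0.028 in control.

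RNA came from whole testes, in which fewer cells of a type and less RNA per cell cannot be told apart, and markers of some cell types differed in mean between the genotypes. All 14 spermatocyte markers were below the control mean (median -0.43), and their mean level ran from 9.40 to 9.93 in control and from 9.20 to 9.47 in knockout arrays, with control replicate 1 (0.33 under the control mean) inside the knockout range. Of 12 Sertoli cell markers 10 were above (median 0.072; 11.34 to 11.39 against 11.39 to 11.46), of 10 macrophage markers 10 (median 0.14; 8.86 to 9.08 against 9.03 to 9.16), and of 7 Leydig cell markers 6 (median 0.22; 9.88 to 10.18 against 10.14 to 10.30). The other Leydig cell marker, Hsd17b3, was lower (-0.43, SE 0.091), with the groups apart. Markers of undifferentiated spermatogonia went both ways, 6 above and 6 below 0, from -0.30 (Sall4) to 0.39 (Gfra1). Of these 12, 7 had an unadjusted p under 0.05 in limma (58.3%, beside 10.6% of all clusters), 4 higher and 3 lower. No marker passed the adjusted threshold in limma. No detection calls were used, so a marker cannot be called absent; the lowest marker value was 4.62, of Rnase10 in the epididymis list. The array medians were between 8.075 and 8.10, and the least alike arrays correlated, after rounding, at 0.997 inside a genotype and 0.996 between genotypes. The part of cell composition in the synthetase values was not tested.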

How the data were processed

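Per the submitters' processing notes, the authors made the deposited log2 values with RMA in Affymetrix Expression Console (background correction, quantile normalisation across arrays, summary over probes). Their versions, the annotation and the build are not stated in the labels. Since RMA forces the arrays onto 1 distribution, it hides any shift common to all transcripts. Of 35556 rows, the 21789 with 1 gene symbol in the platform annotation were tested; 1621 with several symbols and 12146 not named were left out. Knockout was compared with control in limma 3.58.1 (R 4.3.3; lmFit and eBayes on genotype alone); p-values were adjusted by Benjamini-Hochberg across the tested clusters, threshold 0.05, after a test on simulated data. Differences are knockout minus control.

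The members, lists and motif strings (9 searched) were chosen with earlier results of these data known. Array values are given for the members with an unadjusted p under 0.05 or, where these are under 6, for the 6 with the smallest p; Kars and Vars2 were added after their values were seen. Promoters were matched by gene identifier for 25 of 34 members (not for Cars, Hars, Hars2, Lars, Nars, Pars2, Rars, Vars and Wars). The targeted gene is not reported here. Alternatives were the replicate block, an intensity trend with a robust prior, dim clusters left out, all rows, arrays centred on their medians, the mean of a gene's rows, and each array left out.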

Additional observations from a re-analysis of the deposited data

How the results depend on the processing

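No synthetase passed the adjusted threshold in limma under any of the 12 alternatives, the smallest adjusted p of a member being 0.126. Of the 34 members 24 kept their sign throughout, and the 10 that did not had differences of at most 0.023 in size. With arrays left out in turn, synthetases at an unadjusted p under 0.05 numbered 1 to 5, against 4. That is 2.94% to 14.7% of members, beside 7.22% to 10.9% of all clusters. In the other alternatives they numbered 3 to 6 (8.82% to 17.6%, beside 8.49% to 15.6% of all clusters). Synthetases with groups apart numbered 3 with arrays centred on their medians, beside 3299 of 21789 clusters. With an array left out they numbered 8 to 10, beside 4921 to 5885 of 21789 clusters, as fewer arrays make separation easier. All tested clusters past the threshold numbered 3, against 0 with all rows tested, 7 with an intensity trend and robust prior, and 0 to 52 with an array left out (52 without control replicate 1, 1 without control replicate 2, 0 without any other). Charging partners at an unadjusted p under 0.05 numbered 2 with all rows and 0 to 3 with an array left out, and ATF4 targets 1 with dim clusters left out and 1 to 5 with an array left out. With the replicate number as a block, 0 clusters passed the threshold, 4 synthetases and 2 charging partners had an unadjusted p under 0.05. Same-numbered arrays did not deviate together in every pair (correlations 0.17, -0.054 and 0.17 for replicates 1, 2 and 3; 4 of 6 arrays correlated best with their own number), so the number is not taken to pair the samples. The medians of the cytosolic and mitochondrial members moved by less than the pooled SD between arrays of the list's mean level throughout. This SD was larger than the medians themselves, so it could not show that they were stable. For the cytosolic list the SD was 0.039 in control and 0.029 in knockout, beside a median of 0.010. For the mitochondrial list it was 0.026 and 0.036, beside -0.030. The cytosolic median changed sign without control replicate 2 and without knockout replicate 2. With 3 arrays a group, the intervals above set the limit of what could be seen, and that limit moved with the alternatives. Intervals wholly within 1.2-fold numbered 25 to 30 of 34 with an array left out and 28 with the replicate block, against 30.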

Other observations

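The median SD over the 18 cytosolic synthetases was 0.056 in control and 0.032 in knockout, and the control SD was the larger in 13 of 18. Over the 16 mitochondrial synthetases the median SDs were 0.042 and 0.031, and the control SD was the larger in 8 of 16. Over all tested clusters the median SDs were 0.066 and 0.060, and the control SD was the larger in 55.2%. These spreads were not tested. Control replicate 2 was the lowest of the 6 arrays in 6 cytosolic members and in 0 mitochondrial ones. Knockout replicate 3 was the lowest in 7 of 16 mitochondrial members and the highest in 0.

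Transfer RNAs for lysine, glutamine and glutamate are known for a sulfur-carrying wobble uridine, and the enzymes that charge them in the cytosol had differences close to 0. Kars differed by -0.037 (95% interval -0.13 to 0.053), Qars by -0.0033 (-0.11 to 0.10) and Eprs by 0.013 (-0.099 to 0.13). These 3 were chosen after their values were seen. Being close to 0 was not particular to them, since 19 of all 34 members had a difference smaller than its standard error. In Kars all knockout arrays lay below all control arrays, but the nearest values were 10.28 and 10.27. Its groups were no longer apart with arrays centred on their medians.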
